A study of Mus musculus with 4 samples.

Results

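β-cells exposed to IFN-γ for 6 h were compared with untreated β-cells, gene by gene, in mouse islets. β-cells were selected on their hormone UMIs (unique molecular identifiers, each counting 1 captured transcript): Ins1 and Ins2 made up at least 5% of a cell's UMIs, and Gcg, Sst and Ppy each stayed under 1%. Barcodes had to show 200 to 4000 detected genes and at most 12% of UMIs from mitochondrially encoded genes. By this rule 1256 of 2122 kept cells of the IFN-γ library and 1170 of 1521 kept cells of the untreated library were β-cells, 2426 of the 7471 kept cells in all 4 libraries.

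The islets came from adult male C57BL6/J mice (C57BL/6 in the labels), were pooled across animals, and were then divided into 4 cultures left untreated or given IL-1β, IFN-γ or both. Each culture gave 1 single-cell 3′ library on the 10x Genomics platform. With 1 library per condition there was no replicate error and no test between conditions was possible. All intervals below are 95% intervals that cover counting error only.

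IFN-γ is a cytokine of T cells and natural killer cells that reaches the islet during autoimmune attack in type 1 diabetes. Its receptor chains carry the kinases JAK1 and JAK2, which activate transcription factors that bind GAS elements in promoters. IRF1, itself induced in this way, binds interferon-stimulated response elements (ISRE) in a second wave. The known output includes GTPases that attack intracellular pathogens, immunoproteasome subunits, antigen presentation through MHC class I, and feedback inhibitors such as SOCS1.

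The β-cell label was checked against markers that the rule did not use. Of 10 such β-cell markers only Mafa and Slc2a2 are set against another endocrine class here, the α-cells of the untreated library. In the untreated library Mafa, a β-cell transcription factor, was at 622 counts per 1000000 UMIs (CPM) in β-cells and 9.83 CPM in α-cells, which were chosen by Gcg at 5% or more of UMIs. Slc2a2, the glucose transporter GLUT2, was at 139 CPM in β-cells and 3.69 CPM in α-cells. Of the macrophage list of 12 genes, the summed level in β-cells was 90.1 CPM untreated and 48.3 CPM with IFN-γ, mostly from C1qa at 71.1 and 40.4 CPM. The defining macrophage genes Adgre1 and Csf1r were at 0.0503 and 0.302 CPM untreated and at 0 and 0.0717 CPM with IFN-γ. The 8 endothelial markers summed to 6.34 and 6.45 CPM, with Esam the most abundant at 3.52 and 3.44 CPM. The 8 mesenchymal markers summed to 0.956 and 7.10 CPM, with Sparc the most abundant at 0.554 and 1.58 CPM. The 8 ductal markers summed to 567 and 621 CPM, with Krt7 the most abundant at 203 and 197 CPM, and the 7 acinar markers in the gene table to 67.8 and 73.6 CPM, led by Ctrb1. Their part in the comparisons below was not tested.

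Both libraries were deep, but not equally. The β-cells held 19868129 UMIs untreated and 13945412 UMIs with IFN-γ, with medians of 17221 and 11101 UMIs and 3518 and 3023 detected genes per cell. The limit of 4000 genes left out 623 untreated barcodes that met the hormone rule and 131 from the IFN-γ library. The mitochondrial limit left out a further 382 and 230. Few cells lay near the insulin threshold: 11 untreated and 19 IFN-γ cells had 4 to 5% insulin UMIs, and 6 and 17 β-cells had 5 to 6%. The summed level of 23 interferon-inducible GTPase genes (below) was 4395 CPM in the IFN-γ cells just under the threshold and 5309 CPM in those just above it. No barcode was shared between the β-cells of the 2 libraries.

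Insulin took 42.3% of β-cell UMIs in the untreated library and 28.8% in the IFN-γ library. The rule used insulin, so this is no finding, but it moved every other gene. Over the 7366 genes with a mean of at least 10 CPM, the median fold in CPM was 1.24 (0.32 on the log2 scale). A gene at a fold of 1.24 therefore kept its place among the other genes, and folds are best read against that value. The median fold was 1.24 without the upper limit on detected genes, 1.26 and 1.38 at mitochondrial limits of 20% and 5%, and 0.992 with hormone genes left out of each total.

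Gene changes were graded on 2 scales. The first was the ln (fold change), the natural log of the mean over cells of UMIs per 10000 plus 1, IFN-γ minus untreated. On it 55 of 7366 genes lay above 0.5 (0.747% of genes tested) and 3 lay below -0.5 (0.0407%). The second was the ratio of summed CPM, by which 270 genes were at least 2-fold higher (3.67%) and 6 at least 2-fold lower (0.0815%). Of the 55 genes, 52 were also at least 2-fold higher in CPM. Leaving the hormone genes out of each cell's total brought the median fold to 0.992, with 177 genes at least 2-fold higher and 66 at least 2-fold lower. The higher share of these calls went from 97.8% to 72.8%. Idnk, Tap2 and Selenop lay just above the threshold at 0.50, 0.50 and 0.51, and Tapbpl, Ddit3 and Ifi27 just below it at 0.50 each. The genes described from here were picked by their ln (fold change) or by lists, so their sizes are descriptions.

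**Figure D1:**
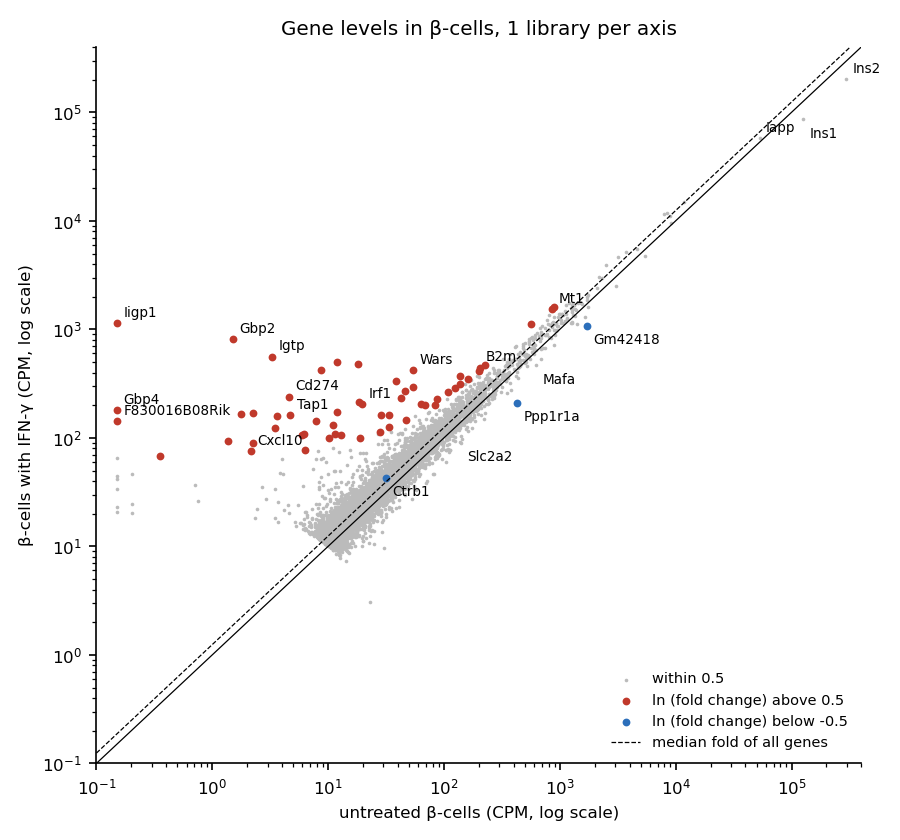
CPM of the 7366 genes in untreated β-cells (horizontal, log scale) and in β-cells with IFN-γ (vertical, log scale). Each point is a gene, levels under 3 UMIs are drawn at 3 UMIs, the solid line marks equal levels and the dashed line the median fold of 1.24. The 55 genes above 0.5 (red) reach from near 0 untreated to over 1000 CPM with IFN-γ, while 3 genes (blue) lie below -0.5, of which Ctrb1 had the higher summed CPM with IFN-γ.

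Promoter stretches are shown for the 10 of the 20 highest named genes whose window held a GAS or ISRE core match before the RefSeq start, since GAS and ISRE elements are where interferon-activated transcription factors are known to act. The search used the letters TTCNNNGAA for GAS and GAAANNGAA for the ISRE core, on both strands, where matches may overlap each other. Stretches are RefSeq promoter sequence, build GRCm38.p6, 5′ to 3′ on the gene's strand, with matches in capitals. RefSeq starts differ from the outer gene bounds of GENCODE, and the stretches of Gbp2, Irgm1, Psmb8, Irgm2 and Snx10 overlap the GENCODE gene spans.
Gbp2, chr3:142620600-142620618, plus strand: ttagtTTCACTTTCactgt
Igtp, chr11:58199506-58199535, plus strand: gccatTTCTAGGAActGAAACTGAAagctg
Irgm1, chr11:48871431-48871455, minus strand: ttcaaGAAATAGAAACCGAAactga
Gbp7, chr3:142530225-142530297, plus strand: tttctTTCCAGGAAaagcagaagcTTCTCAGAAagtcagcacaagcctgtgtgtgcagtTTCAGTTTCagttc
Cd274, chr19:29367357-29367375, plus strand: gtggcTTCGGTTTCacaga
Psmb8, chr17:34198093-34198111, plus strand: cgctgTTCCCAGAAgatgc
Irgm2, chr11:58214897-58214926, plus strand: gccatTTCCAGGAActGAAACTGAAagctg
Gbp3, chr3:142559995-142560019, plus strand: acagtTTCAGTTTCTATTTCccaga
Irf1, chr11:53769919-53769937, plus strand: ctgatTTCCCCGAAatgat
Snx10, chr6:51524230-51524248, plus strand: tttttTTCTCTTTCatggg
Igtp and Irgm2 carried nearly the same stretch, with GAS and ISRE letters side by side. In Irgm1 and Gbp3 a pair of ISRE core matches overlapped. Of the 55 genes above 0.5, 41 had a promoter window in the table, spanning 250 bases before to 50 after the start, and 19 of the 41 (46.3%) held an ISRE core match. Over all 27025 genes in the table the share was 9.76%, and over the 5847 matched genes with the minimum level it was 8.84%. A GAS match stood in 5 of 41 genes (12.2%) against 9.55% of all genes in the table and 7.63% of the matched genes with the minimum level. Among the 20 highest genes, 14 had a window, of which 8 held an ISRE core match and 5 a GAS match. A match describes letters, not a bound site.

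Of the signalling genes, Jak1 moved little, while Jak2 and above all Stat2 were higher. The receptor chains lay under the minimum level. Stat2, a part of the ISGF3 complex with IRF9, went from 12.9 to 107 CPM (8.31-fold, interval 7.27 to 9.52), an ln (fold change) of 0.56. Stat3 went from 147 to 213 CPM and Stat5b from 22.9 to 28.7 CPM, at folds of 1.45 and 1.25. The receptor chain Ifngr1 was at 7.25 and 11.2 CPM and Ifngr2 at 5.59 and 5.09 CPM. Jak1 was at 96.9 and 116 CPM, a fold of 1.20 that sat below the median gene. Jak2 was higher, at 12.9 and 29.3 CPM (2.28-fold, interval 1.94 to 2.67). With hormone genes left out of the totals, none of the 4 receptor and JAK genes with the minimum level was at least 2-fold higher.

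Of 6 interferon regulatory factors with the minimum level 4 were at least 2-fold higher, and Irf7 and Irf9 reached that level only through the IFN-γ library. Irf1, which opens the second wave, went from 19.7 to 205 CPM (10.4-fold, interval 9.36 to 11.6) and was the only one of the 6 that passed 0.5 (2 of 7 with hormone genes left out of the totals). Irf7 went from 8.96 to 64.8 CPM (7.24-fold) and Irf9, the DNA-binding part of ISGF3, from 9.61 to 59.6 CPM (6.20-fold). Irf2 went from 26.2 to 58.1 CPM (2.22-fold). Irf8, best known in myeloid cells, went from 0.252 CPM (5 UMIs) to 15.5 CPM (216 UMIs), a 61.5-fold difference (interval 26.0 to 191). Irf3, which signals from nucleic-acid sensors, stayed at 15.1 and 16.2 CPM.

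Of 8 feedback inhibitors with the minimum level, Socs1 and Usp18 were at least 2-fold higher, and both reached that level only through the IFN-γ library, so that their calls were bound to be high. Socs1, which blocks JAK activity, was at 0.705 CPM untreated and 36.9 CPM with IFN-γ (52.3-fold, interval 30.9 to 96.4). Usp18, which removes ISG15 and restrains the type I interferon receptor, went from 7.40 to 52.1 CPM (7.05-fold). Neither passed 0.5 on the ln scale, because that scale adds 1 UMI per 10000 and compresses low genes. The other 6 inhibitors with the minimum level did not pass 2-fold. Among them Ptpn2, a phosphatase of JAK1, was at 14.7 and 27.8 CPM, and Socs3 was at 13.1 and 20.7 CPM. Socs2 was at 19.7 and 14.5 CPM.

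The interferon-inducible GTPases were the most raised families. Immunity-related GTPases (IRG proteins) and guanylate-binding proteins (GBPs) coat and damage the vacuoles of intracellular pathogens. All 7 IRG genes and all 9 GBP genes that reached the minimum level were at least 2-fold higher, and 5 and 6 of them passed 0.5. The genes reached that level almost wholly through the IFN-γ library, so these counts were bound to be high. Iigp1 was at 0.101 CPM untreated (2 UMIs) and 1143 CPM with IFN-γ (15942 UMIs), the highest ln (fold change) of all genes at 2.49. The ratio was 11356, with a counting interval of 3143 to 93781.

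Gbp2 went from 1.51 to 819 CPM (542-fold, interval 380 to 804), and Igtp, also called Irgm3, from 3.27 to 560 CPM (171-fold). Irgm1, which regulates the effector IRG proteins, went from 12.03 to 498 CPM (41.4-fold), and its relative Irgm2 from 1.76 to 165 CPM (93.7-fold). Gbp7 went from 8.66 to 418 CPM and Gbp3 from 2.26 to 169 CPM. F830016B08Rik had no UMI in untreated β-cells and 143 CPM with IFN-γ, at least 944-fold higher against a floor of 3 UMIs for the library. Tgtp1 and Tgtp2, Gbp10 and Gbp6, and the other tandem copies share sequence, so reads may have been divided between them. Igtp also overlaps the annotated span of Irgm2 on chromosome 11.

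These genes lie in tight groups. Gbp7 (GRCm38 chr3:142530342-142550149), Gbp3 (chr3:142560026-142573209) and Gbp2 (chr3:142620602-142638008) followed each other on the plus strand. Igtp (chr11:58199556-58207591) and Irgm2 (chr11:58199618-58222782) overlapped, while Irgm1 (chr11:48861968-48871683) stood apart. In the MHC region Psmb9 (chr17:34181987-34187764), Tap1 (chr17:34187553-34197225) and Psmb8 (chr17:34197721-34201454) were neighbours. Cd274 (chr19:29367455-29388095) and Jak2 (chr19:29251828-29313080) were near each other, at 52.4-fold and 2.28-fold.

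**Figure D2:**
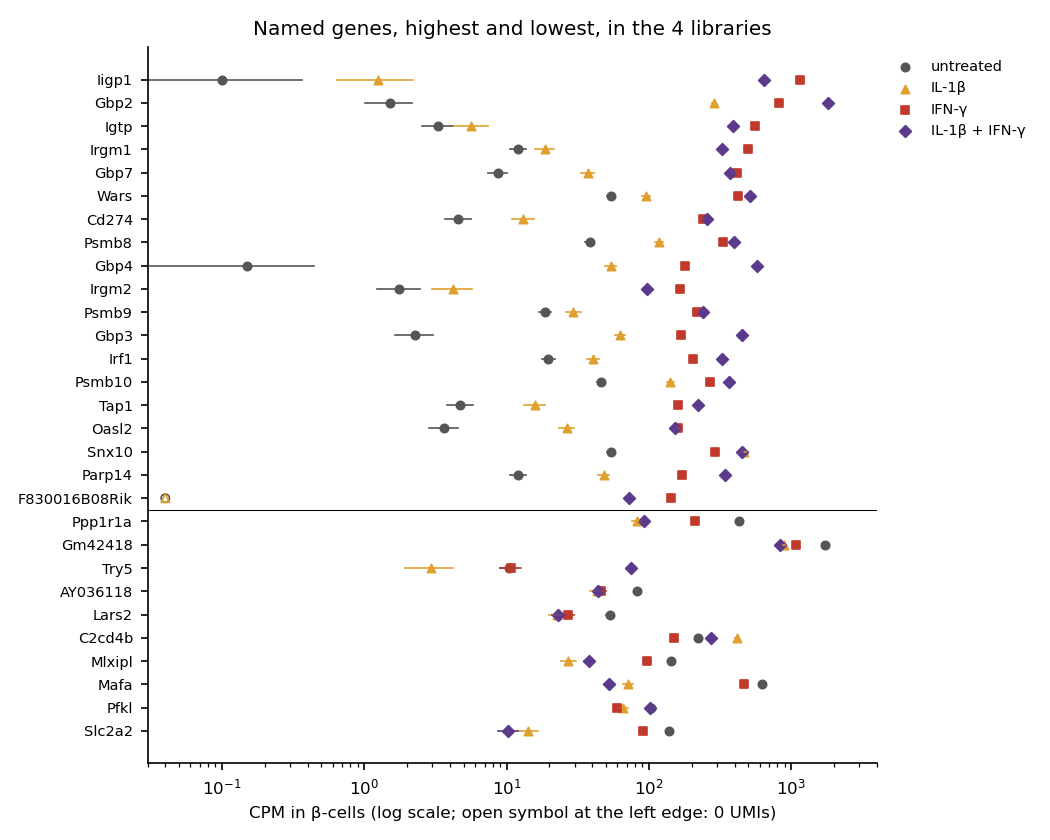
CPM (log scale) in β-cells of each of the 4 libraries for named genes among the 20 with the highest and the 10 with the lowest ln (fold change), with 95% Poisson intervals for counting error. For the upper genes shown, except Snx10, both IFN-γ libraries (squares, diamonds) lie to the right of the untreated and IL-1β libraries. Snx10 was highest with IL-1β. Ppp1r1a, Mafa, Mlxipl and Slc2a2 lie further left with IL-1β than with IFN-γ.

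Of 13 genes of peptide processing for MHC class I, all measured above the minimum, 8 passed 0.5 and 10 were at least 2-fold higher. With hormone genes left out of the totals 8 passed each threshold. Among them Tap1 was under the minimum level untreated and reached it through the IFN-γ library, which favoured a high call. The immunoproteasome subunits Psmb8, Psmb9 and Psmb10 went from 38.5, 18.6 and 46.0 CPM to 332, 216 and 268 CPM (8.64-, 11.6- and 5.83-fold). The PA28 activator genes Psme1 and Psme2 went from 68.6 and 107 CPM to 201 and 263 CPM. The peptide transporter gene Tap1 went from 4.73 to 161 CPM (34.0-fold) and Tap2 from 19.0 to 98.9 CPM (5.20-fold). Tapasin (Tapbp) went from 125 to 291 CPM. The general endoplasmic reticulum chaperones Calr, Canx and Pdia3, with folds of 1.33, 1.37 and 1.39, lay near the median gene.

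B2m, the shared light chain of MHC class I, went from 203 to 445 CPM (2.19-fold), and the non-classical H2-T23 from 47.2 to 148 CPM (3.13-fold). The classical chains H2-K1 and H2-D1 went from 633 and 297 CPM to 924 and 423 CPM (1.46- and 1.42-fold). Nlrc5, the transactivator of class I genes, went from 0.201 CPM (4 UMIs) to 20.2 CPM (282 UMIs), a 100-fold difference with an interval of 38.8 to 371. Of 10 class I genes with the minimum level, 2 passed 0.5 and 5 were at least 2-fold higher, against 1 and 2 with hormone genes left out of the totals. Nlrc5 is among the 10 and among the 5. It reached the minimum level only through the IFN-γ library, so its call was bound to be high. H2 genes are close paralogs, so single-gene values are uncertain.

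MHC class II stayed close to 0. Ciita, the class II transactivator, had no UMI untreated and 7.53 CPM with IFN-γ, at least 49.9-fold higher against the floor. Cd74, the invariant chain, was at 8.10 and 5.66 CPM, and H2-Aa and H2-Ab1 were at 3.52 and 2.42 CPM untreated and 3.16 and 2.94 CPM with IFN-γ. No class II gene reached the minimum level.

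In the list of IFIT, OAS and related genes 16 of the 26 members in the gene table reached the minimum level, of which 15 were at least 2-fold higher and 4 passed 0.5. With hormone genes left out of the totals 20 reached it, of which 19 were at least 2-fold higher and 10 passed 0.5. Most of the 16 lay under the minimum level untreated and reached it through the IFN-γ library, so these counts were bound to be high, and the same held for most of the TRIM genes below. Oasl2, Ifit1, Rtp4 and Ifit3 went from 3.62, 7.80, 6.24 and 2.26 CPM to 159, 143, 109 and 88.9 CPM. All 6 interferon-linked PARP genes were at least 2-fold higher, led by Parp14, an ADP-ribosyltransferase, at 12.03 and 172 CPM (14.3-fold). The 6 summed to 61.9 CPM untreated. Not all were at the minimum level without the IFN-γ library, which favoured high calls. Parp9 and its partner Dtx3l, which share a promoter region in mammals, went from 10.9 and 10.3 CPM to 131 and 99.5 CPM. Of 7 TRIM ubiquitin ligases with the minimum level 6 were at least 2-fold higher and none passed 0.5. Of 14 innate sensors 4 reached the minimum level, and the RNA sensors Ddx58 (RIG-I) and Ifih1 (MDA5) went from 10.7 and 8.30 CPM to 34.1 and 39.6 CPM, both at least 2-fold higher. Ifih1 was under the minimum level untreated and reached it through the IFN-γ library, which favoured a high call. Tlr2 and Nod1, which sense bacterial products, were at 9.81 and 16.8 CPM untreated and 11.8 and 27.4 CPM with IFN-γ. With hormone genes left out of the totals, 4 of 6 sensors with the minimum level and 4 of 7 TRIM genes were at least 2-fold higher.

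Of 10 checkpoint, adhesion and costimulation genes 4 reached the minimum level, and all 4 passed 0.5 and were at least 2-fold higher (3 of 4 by either threshold with hormone genes left out of the totals). Of these, Cd274 and Tnfsf10 reached the minimum level only through the IFN-γ library, so their calls were bound to be high, and H2-T23 is also counted among the class I genes above. Of 10 complement genes only Serping1 reached that level. Cd274, which encodes the checkpoint ligand PD-L1, went from 4.58 to 240 CPM (52.4-fold, interval 42.5 to 65.3). At an equal depth of 4000 UMIs a Cd274 UMI was seen in 1.498% of untreated and 58.5% of IFN-γ β-cells. Tnfsf10, the death ligand TRAIL, went from 3.47 to 123 CPM, and Cd47, the signal against phagocytosis, from 162 to 345 CPM (2.13-fold). Serping1, the C1 inhibitor, went from 42.6 to 231 CPM, and Il18bp, a decoy for IL-18 that is on neither list and was chosen after its values were seen, from 28.7 to 162 CPM.

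Of the 13 chemokine genes listed by the files 3 reached the minimum level, of which Cxcl10 and Ccl2 were at least 2-fold higher and Cxcl10 passed 0.5. Cxcl10, which draws T cells, went from 2.16 to 75.7 CPM (34.99-fold, interval 25.8 to 48.6). Ccl2, which draws monocytes, was at 0.101 CPM (2 UMIs) and 23.2 CPM (323 UMIs). Cxcl16 was at 18.3 and 14.4 CPM. Cxcl10 and Ccl2 reached the minimum level only through the IFN-γ library, so their count was bound to be high. Without the cells high in Hspa1a (at least 10 UMIs per 10000), the ln (fold change) of Cxcl10 went from 0.54 to 0.47 and that of Ccl2 from 0.21 to 0.08, so that neither chemokine passed 0.5 and Ccl2 fell under the minimum level. In the library with both cytokines Cxcl10 stood at 2686 CPM and Ccl2 at 470 CPM.

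The list of NF-κB and IL-1β-driven genes had a median fold of 1.63, and 3 of its 12 measured members were at least 2-fold higher. These were Mt2, Nfkbiz (14.2 to 37.9 CPM) and Defb1, a defensin (24.6 to 58.4 CPM). Nfkbia, the NF-κB inhibitor, was at 48.4 and 50.2 CPM, and Sod2, the mitochondrial superoxide dismutase, at 99.3 and 114 CPM. Nos2, the inducible nitric oxide synthase, had no UMI untreated and 2.44 CPM (34 UMIs) with IFN-γ, while it stood at 140 CPM with IL-1β. Icam1 was at 0.302 and 3.51 CPM. In this list only the metallothioneins Mt1 and Mt2 passed 0.5, at 855 and 225 CPM untreated and 1524 and 472 CPM with IFN-γ. With hormone genes left out of the totals neither passed 0.5, at 0.38 and 0.48, and 1 of 13 members of the list was at least 2-fold higher.

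Of 10 tryptophan, arginine and metabolite enzymes 4 reached the minimum level, of which Wars passed 0.5 and Wars and Cmpk2 were at least 2-fold higher. Wars, the tryptophanyl-tRNA synthetase, went from 54.3 to 421 CPM (7.75-fold, interval 7.27 to 8.28). Nampt, which feeds NAD salvage, is on no list and was also chosen after its values were seen, went from 33.6 to 163 CPM (4.85-fold). Outside this list, Snx10, a sorting nexin of endosomes, went from 54.0 to 292 CPM and reached 465 CPM with IL-1β alone. Gch1, which makes tetrahydrobiopterin precursors, was at 322 and 355 CPM. Ido1, which degrades tryptophan, had no UMI untreated and 1.58 CPM (22 UMIs) with IFN-γ, at least 10.4-fold higher against the floor.

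**Figure D3:**
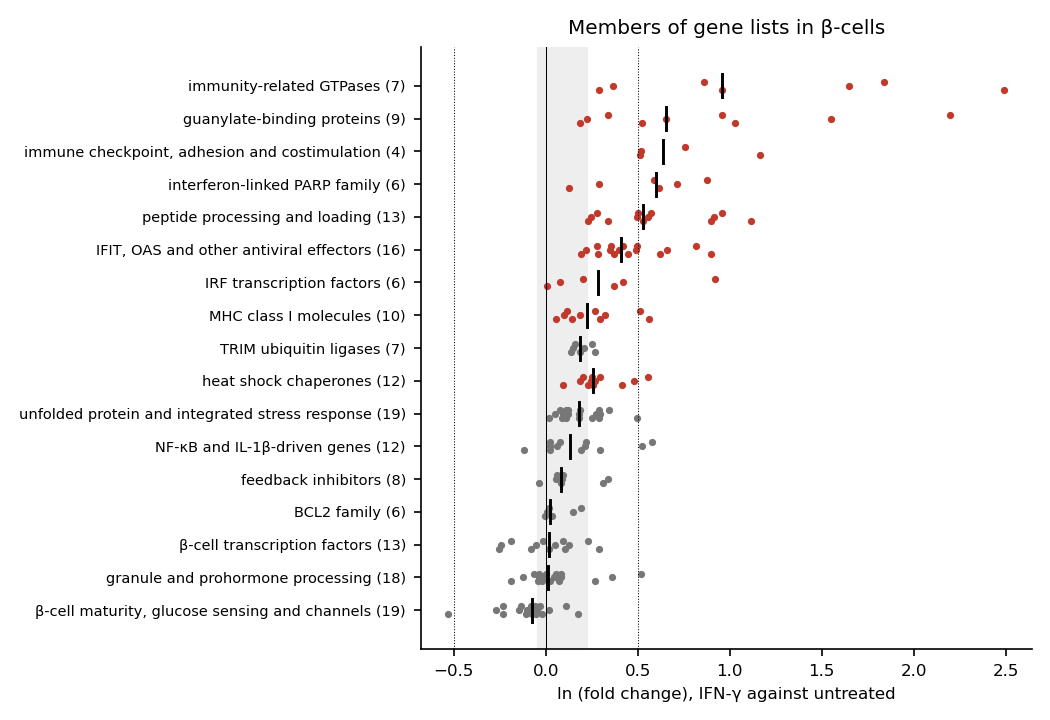
Members of 17 gene lists, marker and other lists left out, with at least 10 CPM on average (points; number in brackets) by their ln (fold change), IFN-γ against untreated, with list medians (bars). Grey shading spans the 5th to 95th percentile of all 7366 genes (-0.04 to 0.23), and red lists have a median above it. Of the lists drawn, both GTPase lists have the highest medians and the β-cell maturity list the lowest.

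Of 13 β-cell transcription factors with the minimum level none passed either threshold. Few genes of any kind did. Of all genes tested, 0.747% lay above 0.5 and 0.0407% below -0.5, while 3.67% were at least 2-fold higher and 0.0815% at least 2-fold lower. The absence of calls among the 13 was therefore near the share over all genes. Of the 13 factors, 5 lay above and 8 below the median gene, and their median fold in CPM was 1.13 beside 1.24 for all genes. Mafa went from 622 to 468 CPM (0.752-fold, interval 0.730 to 0.775) and Pdx1, the master regulator of β-cell development, from 140 to 104 CPM (0.743-fold). Insm1 and Neurod1, which act in endocrine differentiation, went the other way, from 127 and 142 CPM to 203 and 208 CPM. The list of maturity, glucose sensing and channel genes had a median fold of 0.931, and 17 of its 19 measured members were below the median gene.

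The lowest named gene was Ppp1r1a, an inhibitor of protein phosphatase 1, at 430 CPM untreated and 211 CPM with IFN-γ (0.492-fold, interval 0.471 to 0.513). Slc2a2 went from 139 to 90.4 CPM (0.649-fold), Mlxipl (ChREBP, a glucose-responsive transcription factor) from 144 to 97.3 CPM, and C2cd4b from 223 to 149 CPM. Pfkl, the liver-type phosphofructokinase, went from 104 to 59.9 CPM. With IL-1β alone Mafa was at 71.3 CPM, Slc2a2 at 14.1 CPM and Ppp1r1a at 81.9 CPM, and with both cytokines they were at 52.1, 10.3 and 91.6 CPM. C2cd4b was at 417 CPM with IL-1β.

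Some low genes rest on weak ground. Gm42418 (1718 and 1079 CPM) and AY036118 (82.8 and 46.3 CPM) overlap on chromosome 17 where ribosomal RNA reads are known to collect, on opposite strands. Lars2 was at 52.8 and 27.1 CPM. Ctrb1 and Try5, digestive enzyme genes of acinar cells, scored -0.91 and -0.46 on the ln scale, while their summed CPM were higher at 31.8 and 43.0 and near equal at 10.3 and 10.7. At 4000 UMIs per cell, with shallower cells left out, Ctrb1 scored 0.15. Other genes at least 2-fold lower in CPM, named after the values were known, were Apoe (22.9 to 3.08 CPM), Gstp1 (30.5 to 9.68 CPM), Tmod1 and Rasd1.

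Chgb, a granule protein, went from 887 to 1596 CPM (1.80-fold) and was the only one of 18 measured granule genes above 0.5. It no longer passed 0.5 with hormone genes left out of the totals or at 4000 UMIs per cell. It also fell under 0.5 without the upper limit on detected genes (0.488) and at a mitochondrial limit of 20% (0.467). Cpe, the carboxypeptidase that trims proinsulin, went from 985 to 1398 CPM (1.42-fold), while Chga, chromogranin A, went from 5423 to 4693 CPM. All 12 heat shock chaperones were above the median gene, with a median fold of 1.75, and 5 were at least 2-fold higher (2 with hormone genes left out of the totals). Hspa1a, the inducible HSP70, went from 84.0 to 201 CPM (2.40-fold). Without the cells high in Hspa1a, defined below, no chaperone was at least 2-fold higher and 11 were measured. Among unfolded protein response genes Ddit3 (CHOP) went from 61.2 to 147 CPM and Trib3 from 9.46 to 28.1 CPM, and these were the only 2 of 19 at least 2-fold higher (1 with hormone genes left out of the totals). Trib3 was under the minimum level untreated and reached it through the IFN-γ library, which favoured a high call. Of 6 measured BCL2-family genes none passed 2-fold, near the share over all genes tested (3.67% higher and 0.0815% lower).

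The response reached most β-cells but not all. Each cell was thinned to 4000 UMIs, which left out 35 untreated and 50 IFN-γ cells as too shallow, and the UMIs of the 23 IRG and GBP genes were summed. The lowest, median and highest sums were 0, 0 and 4 in 1135 untreated cells and 0, 17 and 90 in 1206 IFN-γ cells. A sum of 5 or more was seen in 89.0% of IFN-γ β-cells and in none untreated. Of the IFN-γ β-cells 61 (5.06%, exact binomial interval 3.89 to 6.45) held no such UMI, as did 998 untreated cells (87.9%). No cell class of the culture is known to lack the response, so the part of free RNA in these sums was not tested.

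**Figure D4:**
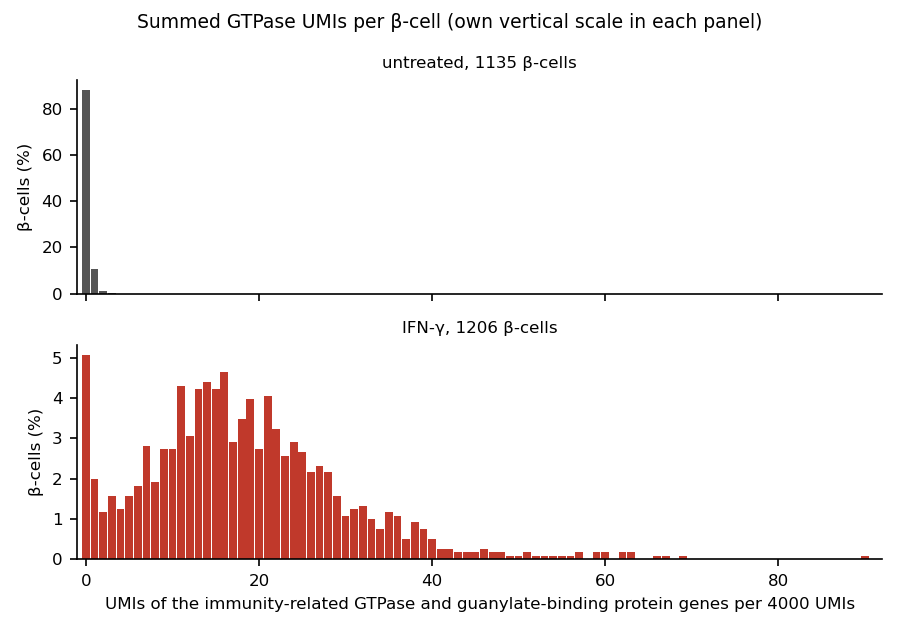
Share of β-cells (vertical, %) by their summed UMIs of 23 IRG and GBP genes at 4000 UMIs per cell (horizontal), untreated above and IFN-γ below. Untreated cells end at 4, while IFN-γ cells spread around a median of 17 with a further peak of 61 cells at 0.

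The 61 cells differed in other ways from the 1073 IFN-γ cells with 5 or more GTPase UMIs. Cells with at least 10 Hspa1a UMIs per 10000 made up 30 of the 61 (49.2%), 17 of the 72 cells at 1 to 4 (23.6%) and 21 of the 1073 (1.96%). Psmb8, which was not summed, was at 49.8 CPM in the cells at 0 (interval 33.1 to 72.0), 145 CPM at 1 to 4 and 357 CPM at 5 or more. Wars was at 69.4, 95.7 and 456 CPM, and Cd274 at 14.2, 97.2 and 259 CPM. Untreated β-cells were at 38.5 CPM of Psmb8 and 4.58 CPM of Cd274.

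Mt1 ran the other way, at 3034 CPM in the cells at 0 and 1376 CPM at 5 or more. Mafa and Chgb were lower in the cells at 0, at 340 and 1094 CPM, than in those at 5 or more, at 483 and 1629 CPM. Jak1 was at 108 and 118 CPM and Ifngr1 at 10.7 and 10.6 CPM with overlapping counting intervals. Median depth was 8670 UMIs in the cells at 0 and 11519 at 5 or more, and the median insulin share was 27.5% and 28.3%. Split on Hspa1a instead, which uses no GTPase gene, the 78 high cells of the IFN-γ library had 1538 CPM of GTPase UMIs (interval 1448 to 1633) and the other 1178 cells had 4641 CPM (4605 to 4678). The untreated library held 19 such high cells (1.62%) and the IFN-γ library 6.21%. The share was not particular to IFN-γ, at 8.73% of β-cells in the IL-1β library and 6.22% in that with both cytokines.

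**Figure D5:**
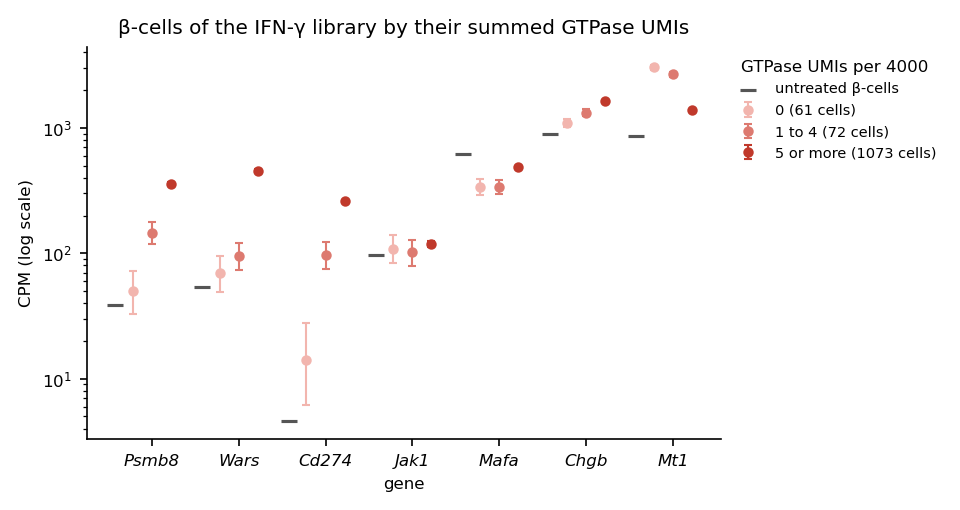
CPM (log scale) of 7 genes in IFN-γ β-cells with 0, 1 to 4, and 5 or more GTPase UMIs per 4000 (points, 95% Poisson intervals for counting error), beside untreated β-cells (dashes). Psmb8, Wars and Cd274 climb with the GTPase sum, Jak1 stays near 100 CPM, and Mt1 is highest in the cells at 0.

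The GTPase level was also compared across insulin content and in α- and δ-cells. When IFN-γ β-cells were divided into 4 equal sets from lowest to highest insulin share, the GTPase level per 1000000 UMIs that were not insulin was 5668, 6330, 6586 and 6589. In CPM of all UMIs the order was the opposite, at 4887, 4798, 4515 and 3942, so the direction across insulin content depended on the total used. The median insulin shares of those sets ran from 13.9% to 39.0%. Summed over all β-cells the 23 genes stood at 34.0 CPM without cytokine and at 4485 CPM after IFN-γ, beside 612 CPM in the IL-1β library and 5790 CPM in that with both. In the 259 α-cells of the IFN-γ library they stood at 5857 CPM, from 55.3 CPM in 82 untreated α-cells. The 44 δ-cells with IFN-γ (Sst at 5% or more) were at 4773 CPM, while the untreated library held only 9 δ-cells. Per 1000000 UMIs that were not insulin the order of the classes changed. With IFN-γ they stood at 6302 in β-cells, 5873 in α-cells and 4784 in δ-cells.

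Single genes differed between classes. Iigp1 was at 1143 CPM in β-cells and 1738 CPM in α-cells with IFN-γ, and Gbp2 at 819 and 666 CPM. Wars was at 421 CPM in β-cells and 78.7 CPM in α-cells, from 54.3 and 22.1 CPM untreated. Cd274 was at 240 and 140 CPM. α-cells have little insulin RNA, so their CPM are shares of a different total, and the difference between classes was not tested.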

How the data were processed

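Dissociated islet cells were loaded on a 10x Genomics Chromium controller with single-cell 3′ chemistry (v2 in the labels, v3 in the study's methods). The authors deposited raw UMI counts per gene and barcode, which the submitters' processing notes credit to Cell Ranger with the mm10 genome, and the file headers give software version 3.0.0. Library totals were 50731370 UMIs untreated and 31209339 with IFN-γ over 31053 genes, and the deposited counts had no correction for free RNA. Insulin made up a median of 0.522% and 0.239% of UMIs in 62 and 75 cells led by macrophage, endothelial or mesenchymal markers (at least 1% of UMIs), a measure of free RNA.

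From these counts β-cells were selected, and summed CPM, ln (fold change) with a pseudocount of 1 UMI per 10000 and exact Poisson, binomial and conditional ratio intervals were computed (Python 3, numpy, scipy). Code was tested on simulated data. Named genes were the 20 highest and 10 lowest by ln (fold change), without hormone genes, markers of other cell types, mitochondrially encoded genes and genes changing sign at 4000 UMIs. List members past a threshold or with a role in IFN-γ signalling were also named. Members and lists were chosen with earlier results of these data known. Doublets were not removed in the main comparison. Gene positions are from GENCODE M21 (GRCm38). Some named items are not reported here. The 7 list symbols missing from the gene table were not analysed here. Alternatives covered cell filters, the β-cell rule, depth, totals, doublets, averaging, pseudocount, minimum level and Hspa1a.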

Additional observations from a re-analysis of the deposited data

Results flagged for a closer look

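Barcodes that met the hormone rule but were left out by a filter also showed the GTPase signal above the control. In the IFN-γ library the 131 barcodes with over 4000 detected genes stood at 4425 CPM of GTPase UMIs, beside 35.3 CPM in the 623 untreated ones. The 230 barcodes with over 12% mitochondrial UMIs stood at 4548 CPM, beside 34.7 CPM in 382 untreated ones. Both are signals in cells outside the comparison, and with 1 library per condition neither difference was tested.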

How the results depend on the processing

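With 1 library per condition no replicate could be left out and no p-value was possible. No paired analysis was possible because each condition had 1 library and no result came from a test. The 55 genes above 0.5 numbered 46 to 69 under every alternative but a pseudocount of 0.1, which gave 269 higher and 13 lower. Between 42 and 55 of the 55 were above 0.5 under each alternative. The 3 genes below -0.5 became 1 at 4000 UMIs per cell, 1 with pooled sums and 5 with hormone genes left out of the totals. The 270 genes at least 2-fold higher and 6 lower became 570 and 14 with a mitochondrial limit of 5%, 177 and 66 with hormone genes left out, 86 and 1 with a minimum of 50 CPM, and 1528 and 1813 with no minimum level. They became 146 and 35 relative to the median gene, an alternative chosen after seeing the data, and 13 genes were lower at 4000 UMIs. Ctrb1 reversed to 0.147 at 4000 UMIs and 0.0815 with pooled sums, and with it the acinar marker median to 0.0620 and 0.0450. Scrublet called 42 untreated and 20 IFN-γ cells as doublets, of which 30 and 1 were β-cells, and removing them left 55 and 3 genes. Low counts limit most regulators, since a level of 3 UMIs is 0.151 CPM untreated and 0.215 CPM with IFN-γ.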

Other observations

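Beyond the genes described, Serpina10, a serine protease inhibitor, went from 138 CPM untreated to 369 CPM with IFN-γ in β-cells. Ppa1, the cytosolic inorganic pyrophosphatase, went from 63.7 to 206 CPM, and Glul, glutamine synthetase, from 136 to 316 CPM. Selenop, the selenium carrier, went from 201 to 414 CPM. Glul stood at 747 CPM with IL-1β, while Selenop stood at 225 CPM. The immediate early genes Egr1 and Jun went from 73.8 and 126 CPM to 172 and 230 CPM. Of 11 measured members of that list, 3 were at least 2-fold higher, beside 3.67% of all genes tested. Egr1 was among them and Jun was not. With hormone genes left out of the totals, 2 of 12 were at least 2-fold higher. Of death receptor and caspase genes, Mlkl, the executor of necroptosis, went from 0.906 to 14.6 CPM, and Fas was at 0.0503 and 1.15 CPM. The 10 disallowed and dedifferentiation genes summed to 11.8 CPM untreated and 12.5 CPM with IFN-γ, and none reached the minimum level. Ribosomal protein genes had a median fold of 1.25 over 77 measured members and mitochondrially encoded genes 1.30 over 13, both close to the median gene.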
